A study of Mus musculus with 25 samples.

Results

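Hepatocytes of C57BL/6 mice after 1 week on a NASH diet were compared with hepatocytes of C57BL/6 mice on a normal diet. The 1-week group holds 4 libraries and the normal-diet group, which the labels place at 0 weeks on the NASH diet, holds 5, together 9 of the 25 libraries of a diet time course that runs to 6 weeks. NASH, non-alcoholic steatohepatitis, is a liver disease in which fat accumulates in hepatocytes and inflammation and scarring follow. Members were chosen by label alone: the columns headed WD at 1 week, which carry the titles of the 1-week NASH group, and the columns of the normal-diet group. Not given in the sources used here are the composition of either diet, the ages and sex of the mice and the gate of the sort. In all groups cells were freed by collagenase perfusion, hepatocytes enriched by slow centrifugation and then sorted by flow cytometry, and the labels name no transgene, deletion or drug. Whether the libraries of a group come from different mice is not stated, so the p-values describe differences against the spread between libraries.

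Hepatocytes both make cholesterol and take it up, and they match synthesis to supply by feedback. When sterols in the endoplasmic reticulum are low, the escort protein SCAP carries the transcription factor SREBP2 to the Golgi, where proteases release its active part, which switches on nearly every enzyme of cholesterol synthesis. When sterols are plentiful, INSIG proteins hold SCAP back, while oxysterols activate the nuclear receptor LXR, which raises the exporters ABCG5 and ABCG8. SREBP1c, made from Srebf1, does for fatty acid synthesis what SREBP2 does for cholesterol.

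The 9 libraries held 5281143 to 7985100 counts, and levels are given as CPM, counts scaled to library size and composition. All 10 hepatocyte markers were detected, with summed levels of 95040 to 106500 CPM at 1 week and 113000 to 124400 CPM on normal diet. All 13 Kupffer cell markers had positive log2 fold changes, with a median of 0.70; edgeR, DESeq2 and voom called 0 of them, and 0 had an unadjusted p under 0.05. The Kupffer markers had summed levels of 355 to 928 CPM at 1 week and 118 to 633 CPM on normal diet. The median log2 fold change was 0.59 over the monocyte, macrophage and dendritic cell markers (13 of 15 positive) and 0.78 over the stellate cell markers (13 of 16 positive). None of these was called by edgeR, DESeq2 or voom, and 0 and 3 had an unadjusted p under 0.05. Summed stellate cell markers spanned 118 to 341 CPM at 1 week and 78.7 to 162 CPM on normal diet, and endothelial markers 423 to 750 CPM at 1 week and 243 to 940 CPM on normal diet. The low ends on normal diet were libraries 1 and 5, which also stood apart on the first principal component; without them the Kupffer median was 0.19 and the endothelial one -0.18. Week 1 libraries 3 and 4 held summed exocrine pancreas transcripts of 164 and 111 CPM, against 0.363 to 1.40 CPM in the other 7 libraries. Summed erythroid markers spanned 12.5 to 44.8 CPM at 1 week and 4.17 to 51.9 CPM on normal diet, with Slc4a1 at 0 in all 9 libraries. Summed adipocyte markers were apart, at 2.745 to 4.19 CPM at 1 week and 0.269 to 1.38 CPM on normal diet. Lep among them was at 0 in all 9 libraries, and Cfd, the only one tested, had a log2 fold change of 2.25 ± 0.97 (adjusted p = 0.402, edgeR; called by DESeq2 and with the compared groups alone). The part of these markers in the results below was not tested beyond the alternatives given. In sorted bulk samples, fewer cells of a type and less RNA per cell cannot be told apart.

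After 1 week the RNA of hepatocytes differed from the normal-diet state mainly by lower levels. Of 11869 genes tested with edgeR's quasi-likelihood test, 142 passed a Benjamini-Hochberg adjusted p of 0.05, which is 1.2% of the genes tested: 26 were higher (0.219%) and 116 lower (0.977%). The counts of called members in the gene lists below stand against these shares. The change was at least 2-fold for 18 of the higher and 67 of the lower genes. The libraries of the groups did not overlap for 4.42% of the genes tested (1.58% higher, 2.85% lower). The median log2 fold change of all genes tested was 0.02. The split of the calls depends on the scaling: with library size alone, which moves the median of all genes to 0.14, 69 genes were higher and 82 lower. Without normal-diet libraries 1 and 5, 84 genes were called, and without week 1 libraries 3 and 4, 67. Leaving out normal-diet library 5 alone gave 94 calls, and leaving out week 1 library 2 gave 93. Of the 142 genes, 51 kept their call in each of up to 20 alternatives in which they were tested, and 0 changed sign in any.

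**Figure D1:**
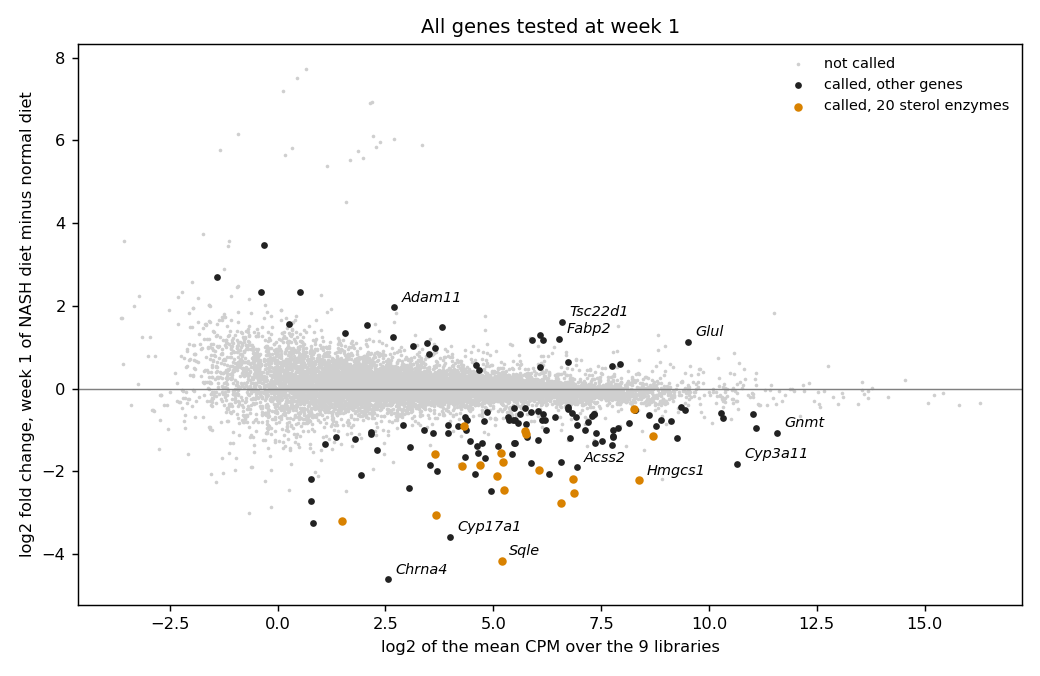
Log2 fold change of each gene tested (1 week minus normal diet, y axis) against the log2 of its mean CPM over the 9 libraries (x axis). Grey points were not called; orange points are the 20 sterol synthesis enzymes, all below 0, and black points are the other called genes, of which 26 lie above 0.

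Every measured enzyme of cholesterol synthesis was called lower after 1 week: 8 of 8 genes from acetoacetyl-CoA to farnesyl pyrophosphate and 12 of 12 from squalene to cholesterol, against 0.977% of all genes tested. The median log2 fold changes were -2.16 and -1.86, against 0.02 over all genes. The groups did not overlap for 17 of the 20 enzymes, while such a separation towards lower values was seen in 2.85% of all genes tested. Under the 20 alternatives, 6 to 8 genes of the first arm and 10 to 12 of the second were called. Idi1, of the first arm, was tested in 18 of these alternatives. With library size alone the medians were -2.04 and -1.73.

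Start-site sequence was available for 15 of the 20 enzymes, and 5 stretches are shown because SREBP2 works at such promoters together with NF-Y, a factor that binds the CCAAT box. The sequences are those of RefSeq on build GRCm38.p6, which is not the build of the counts. The first 4 are the 150 bases before the annotated start of Hmgcs1 (chr13:119690201-119690350, plus strand), Mvd (chr8:122443423-122443572, minus strand), Cyp51 (chr5:4104698-4104847, minus strand) and Msmo1 (chr8:64733579-64733728, minus strand). The last is the 241 bases between the divergent starts of Mmab and Mvk (chr5:114444028-114444268, plus strand, read towards Mvk). Capitals mark CCAAT read on either strand, where ATTGG is the reverse complement, and in Hmgcs1 also TCACNCCAC, a sterol response element pattern.
Hmgcs1: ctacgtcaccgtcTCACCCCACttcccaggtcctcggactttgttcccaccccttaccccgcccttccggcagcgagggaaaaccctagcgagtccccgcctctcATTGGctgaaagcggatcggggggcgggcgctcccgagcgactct
Mvd: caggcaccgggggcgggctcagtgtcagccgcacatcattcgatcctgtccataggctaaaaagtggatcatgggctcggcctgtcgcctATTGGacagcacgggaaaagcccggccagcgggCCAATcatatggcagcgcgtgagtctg
Cyp51: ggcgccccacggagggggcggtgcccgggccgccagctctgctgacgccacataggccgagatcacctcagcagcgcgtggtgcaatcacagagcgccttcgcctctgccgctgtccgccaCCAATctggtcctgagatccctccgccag
Msmo1: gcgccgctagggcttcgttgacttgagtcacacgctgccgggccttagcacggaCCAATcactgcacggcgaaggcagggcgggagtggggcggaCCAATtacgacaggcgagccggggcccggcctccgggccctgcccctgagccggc
Mmab-Mvk: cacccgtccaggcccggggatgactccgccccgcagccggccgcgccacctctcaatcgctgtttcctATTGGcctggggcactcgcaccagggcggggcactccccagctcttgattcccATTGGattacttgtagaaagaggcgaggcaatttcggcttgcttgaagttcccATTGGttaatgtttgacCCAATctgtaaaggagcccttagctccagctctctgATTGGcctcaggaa

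Within windows of 250 bases before to 50 after the start, CCAAT on either strand was found in 14 of the 15 matched enzymes (93.3%), Acat2 being the exception. The share was 42.9% among the 9232 tested genes with a window and 41.1% among all 27025 symbols of the table. TCACNCCAC was found in 1 of the 15 (6.67%), which was Hmgcs1, against 1.44% of the tested genes. The patterns do not overlap each other. A match describes letters in a window and is not evidence of binding there. Fdps, Fdft1 and Sqle were among those with no window.

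In the mevalonate arm the fall was seen from the first steps on. Hmgcs1, which joins acetoacetyl-CoA and acetyl-CoA, had 92.1, 97.4, 122 and 130 CPM after 1 week, against 632, 466, 197, 511 and 751 CPM on normal diet. The groups did not overlap, and normal-diet library 3 was the lowest of its group. The log2 fold change was -2.21 ± 0.31 (SE; adjusted p = 0.000324, edgeR).

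The kinases, the decarboxylase and the prenyl synthase followed. Mvd, which decarboxylates the pyrophosphate of mevalonate, had 2.88, 2.32, 1.79 and 3.06 CPM after 1 week, against 23.8, 25.7, 14.2, 21.3 and 20.0 CPM on normal diet. That is 8.36-fold lower, and week 1 libraries were all at a few CPM. Pmvk, the kinase before it, averaged 11.7 ± 1.89 CPM after 1 week (SD, n = 4) and 51.3 ± 16.3 CPM on normal diet (SD, n = 5). Mvk, the first kinase, averaged 5.91 ± 2.55 CPM after 1 week and 17.8 ± 6.58 CPM on normal diet, and overlapped only through normal-diet library 3 at 7.17 CPM. Idi1, the isomerase that makes the second prenyl unit, was at most 0.80 CPM in the week 1 libraries and at 7.81, 3.97, 0.312, 4.31 and 6.80 CPM on normal diet. Here too normal-diet library 3 was the one inside the week 1 range. Fdps, farnesyl pyrophosphate synthase, had 27.0, 15.9, 25.4 and 21.3 CPM after 1 week, against 194, 151, 83.1, 142 and 199 CPM on normal diet, and was 6.85-fold lower. Acat2, the thiolase that starts the pathway, moved least in this arm, to 33.7 ± 2.49 CPM after 1 week (SD, n = 4) against 68.2 ± 13.6 CPM on normal diet (SD, n = 5; 2.02-fold lower).

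**Figure D2:**
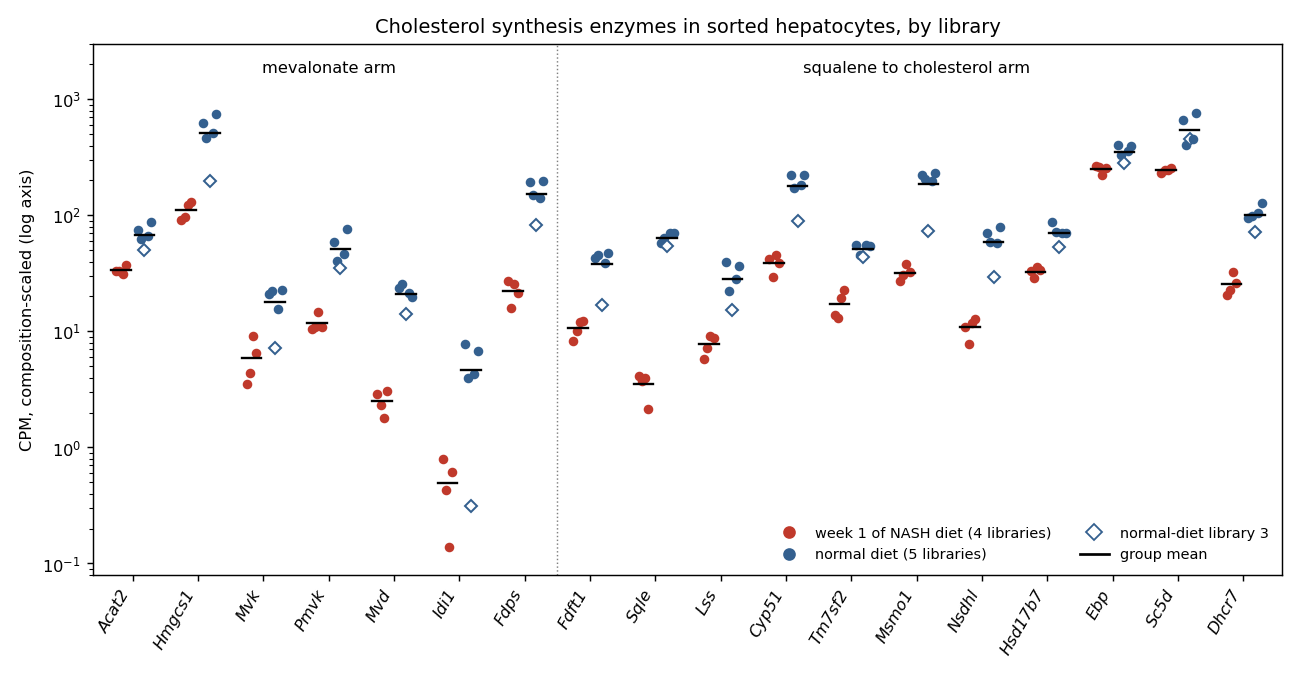
Level of 18 of the 20 sterol synthesis enzymes in every library (CPM, log axis), in pathway order; red points are the 4 week 1 libraries, blue points the 5 normal-diet libraries, the open diamond normal-diet library 3, and bars group means. The groups are apart for 16 of these 18 enzymes, and the diamond is the lowest normal-diet point for 17.

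From squalene onward, the largest fall of all 20 enzymes was that of Sqle, squalene epoxidase, a point of control in the pathway. It had 4.16, 3.76, 3.99 and 2.14 CPM after 1 week, against 57.7, 63.4, 54.9, 70.4 and 70.0 CPM on normal diet. It was 17.9-fold lower, and its log2 fold change lay between -4.25 and -3.99 in all 20 alternatives. Fdft1, squalene synthase, averaged 10.6 ± 1.83 CPM after 1 week (SD, n = 4) and 38.3 ± 12.4 CPM on normal diet (SD, n = 5). Lss, which closes the sterol ring, averaged 7.73 ± 1.56 CPM after 1 week and 28.4 ± 10.1 CPM on normal diet. Neither gene had a week 1 library inside its normal-diet range.

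Removal of the extra methyl groups from lanosterol showed the next largest changes. Cyp51, the demethylase, had 41.9, 29.7, 45.6 and 39.0 CPM after 1 week, against 222, 171, 89.8, 182 and 223 CPM on normal diet. Msmo1, the methyl oxidase, had 27.3, 30.4, 38.1 and 32.3 CPM after 1 week, against 221, 205, 73.0, 199 and 230 CPM on normal diet. In both genes normal-diet library 3 lay between the groups. Nsdhl, the dehydrogenase of the same complex, was 5.46-fold lower, Tm7sf2, a ring reductase, 2.96-fold, and Hsd17b7, a keto-reductase, 2.15-fold. Erg28, the scaffold of this complex and not in the list, was 1.70-fold lower (adjusted p = 0.0034, edgeR; chosen after its values were seen).

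The last steps moved less, apart from Dhcr7. Dhcr7, the final reductase of one branch, averaged 25.5 ± 5.28 CPM after 1 week (SD, n = 4) and 99.9 ± 20.2 CPM on normal diet (SD, n = 5). Sc5d, a desaturase, averaged 246 ± 9.72 CPM after 1 week and 548 ± 158 CPM on normal diet. Ebp, the sterol isomerase, was the least changed enzyme, with 251 ± 20.4 CPM after 1 week and 355 ± 49.9 CPM on normal diet (1.41-fold lower, lost in 12 of 20 alternatives). That call was lost without normal-diet library 1 or 5 and without any 1 week 1 library, and the log2 fold change stayed between -0.57 and -0.37.

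Averaged over the 20 enzymes, the log2 level was 4.08, 4.02, 4.25 and 4.24 in the week 1 libraries, against 6.33, 6.09, 5.32, 6.08 and 6.43 in the normal-diet libraries. The week 1 libraries lay close together, and normal-diet library 3 stood between the rest of its own group and the week 1 group.

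In the machinery around SREBP2 a part of the members passed the test. Of 14 tested members of sterol control and uptake, 4 were called lower, against 0.977% of all genes tested. The median log2 fold change was -0.28, and these 4 calls held in all 20 alternatives. An unadjusted p under 0.05 (edgeR) was seen for 8 of the 14, against 10.4% of all genes. Insig1, the INSIG form whose own gene SREBP switches on, had 29.7, 34.6, 38.5 and 60.2 CPM after 1 week, against 94.2, 152, 138, 135 and 178 CPM on normal diet. Stard4, a cholesterol carrier, was 2.01-fold lower and Tmem97, a sterol-responsive membrane protein, 1.70-fold lower.

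The SREBP2 gene itself did not pass the test. Srebf2 averaged 10.9 ± 2.92 CPM after 1 week (SD, n = 4) and 17.2 ± 5.59 CPM on normal diet (SD, n = 5; adjusted p = 0.272). Scap had a log2 fold change of -0.28 ± 0.12 and Insig2, the INSIG form that SREBP does not induce, 0.24 ± 0.17; neither was called.

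On the side of sterol export, 1 of 10 tested LXR targets and efflux genes was called higher, against 0.219% of all genes, and all 10 had positive log2 fold changes (median 0.34). Abcg8, which pairs with ABCG5 to pump sterols into bile, had 67.5, 110.0, 78.3 and 89.6 CPM after 1 week, against 30.5, 24.3, 64.7, 24.9 and 46.1 CPM on normal diet. Its partner Abcg5 had 67.6, 89.4, 77.4 and 103 CPM after 1 week, against 21.96, 18.8, 86.4, 22.2 and 31.8 CPM on normal diet. In both genes normal-diet library 3 was the highest of its group, and for Abcg5 it lay inside the week 1 range. Abcg5 did not pass (log2 fold change 1.21 ± 0.34, adjusted p = 0.102, edgeR), but passed without that library, with a log2 fold change of 1.84. With all libraries it also passed under DESeq2, voom and library size alone, and it did not pass in the other alternatives. The Abcg8 call was lost in 4 of 20 alternatives: with the compared groups alone, without week 1 library 2 and in both removals of 2 libraries. Its log2 fold change was between 1.04 and 1.47 in the 20 alternatives. Abca1, the exporter to HDL, had a log2 fold change of 0.36 ± 0.14 and Nr1h3, the gene of LXR alpha, 0.04 ± 0.10, neither called. Rnf145, an endoplasmic reticulum ubiquitin ligase known to act on sterol control, was called higher at 15.0 ± 1.5 CPM after 1 week (SD, n = 4) and 8.35 ± 3.28 CPM on normal diet (SD, n = 5). That call was lost in 13 of 20 alternatives, among them each removal of 1 library except normal-diet library 3, with log2 fold changes between 0.66 and 1.04.

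Fatty acid synthesis was lower in most members but passed the test in few. Of 17 tested genes of fatty acid synthesis and NADPH supply, 3 were called lower, against 0.977% of all genes tested, 15 had negative log2 fold changes and the median was -1.03. Acss2, the cytosolic enzyme that makes acetyl-CoA from acetate, had 40.9, 39.8, 50.2 and 63.6 CPM after 1 week, against 184, 160, 142, 151 and 276 CPM on normal diet. It was 3.75-fold lower and held in all 20 alternatives. Me1, malic enzyme, which supplies NADPH, had 61.4, 50.5, 67.9 and 75.8 CPM after 1 week, against 107, 123, 252, 118 and 129 CPM on normal diet. Acacb, the acetyl-CoA carboxylase whose product restrains mitochondrial fatty acid import, averaged 24.7 ± 8.04 CPM after 1 week (SD, n = 4) and 61.1 ± 11.3 CPM on normal diet (SD, n = 5). The Me1 call was lost in 7 of 20 alternatives, including without normal-diet library 3 or week 1 library 1, 2 or 3. The Acacb call was lost in 14, including without any 1 of the 9 libraries, with log2 fold changes between -1.61 and -1.09.

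Several other genes of this group were far higher in normal-diet library 3, the library with low sterol enzymes, than in the other normal-diet libraries. Fasn, fatty acid synthase, had 114, 120, 244 and 236 CPM after 1 week, against 266, 321, 1334, 247 and 345 CPM on normal diet (adjusted p = 0.31). Thrsp, a lipogenic regulator, had 151, 111, 193 and 194 CPM after 1 week, against 297, 505, 2056, 317 and 509 CPM on normal diet (adjusted p = 0.0754). The groups of both genes did not overlap, but 1 normal-diet library was several times above the other 4. Elovl6, an elongase, had 77.7, 64.0, 74.2 and 88.4 CPM after 1 week, against 128, 95.3, 564, 100.0 and 107 CPM on normal diet, with the same library on top. Srebf1 had 75.6, 95.2, 241 and 182 CPM after 1 week, against 34.3, 62.8, 267, 45.7 and 92.8 CPM on normal diet, so its groups overlapped widely (log2 fold change 0.56 ± 0.57). Scd1, the stearoyl desaturase, likewise overlapped, at 4943 ± 834 CPM after 1 week and 6066 ± 4098 CPM on normal diet. Without normal-diet library 3 the median of the 17 genes was -0.51 and 1 gene was called; the counts were also 1 without week 1 library 1, 2 or 3. Mlxipl, which encodes the glucose-responsive factor ChREBP, had a log2 fold change of 0.05 ± 0.16.

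**Figure D3:**
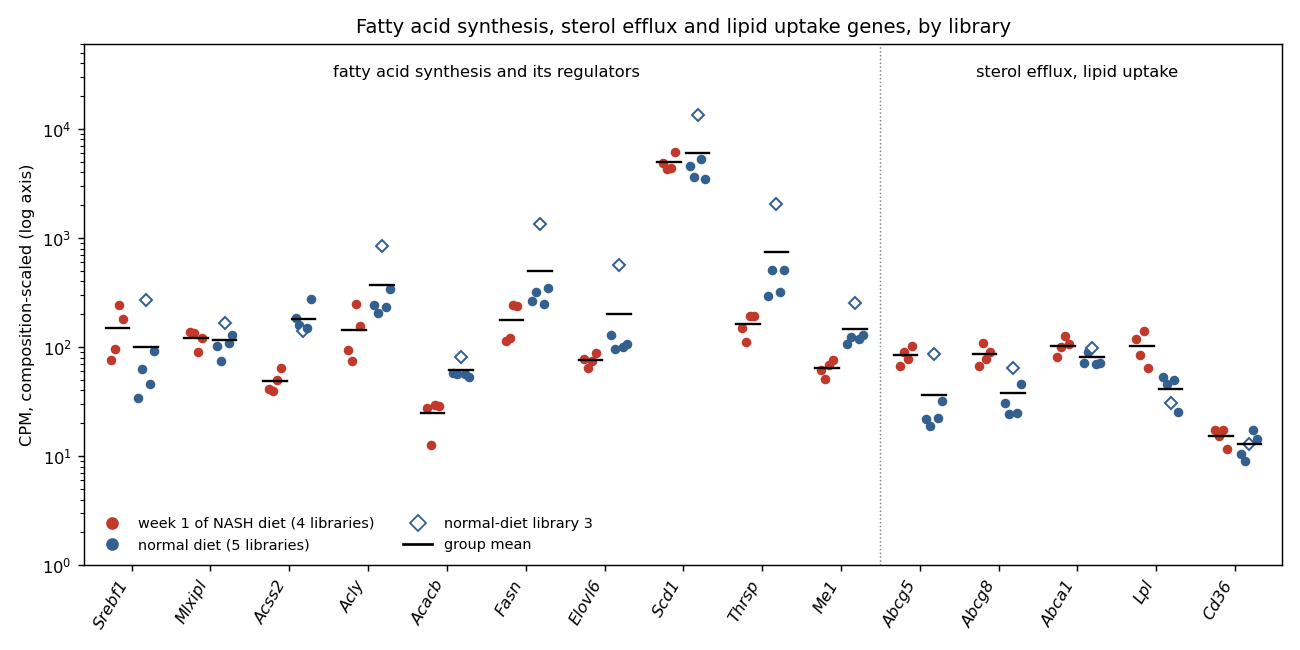
Level of genes of fatty acid synthesis, sterol export and lipid uptake in every library (CPM, log axis); red points are the 4 week 1 libraries, blue points the 5 normal-diet libraries, the open diamond normal-diet library 3, and bars group means. The diamond is the highest normal-diet point for Fasn, Thrsp, Elovl6, Acly, Scd1, Srebf1, Acacb, Me1, Abcg5 and Abcg8.

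Genes of polyunsaturated fats and of lipid droplets held 1 call each. Of 8 desaturases, elongases and acyl-CoA synthetases of polyunsaturated fats, 1 was called lower, against 0.977% of all genes tested. In this list 7 had negative log2 fold changes (median -0.365). An unadjusted p under 0.05 (edgeR) was seen for 4, against 10.4% of all genes. DESeq2 called 3, as did edgeR with the compared groups alone. The call was that of Acsl3, at 32.8 ± 3.81 CPM after 1 week (SD, n = 4) and 55.3 ± 9.16 CPM on normal diet (SD, n = 5). Its call was lost in 10 of 20 alternatives, including without normal-diet library 2 or 5 or any 1 week 1 library. Fads1, a desaturase of polyunsaturated fats, had 139, 157, 162 and 198 CPM after 1 week, against 367, 310, 250, 315 and 296 CPM on normal diet; the groups were apart without passing (adjusted p = 0.0859). Of 19 triglyceride and lipid droplet genes 1 was called higher, against 0.219% of all genes tested. This was Mgll, monoacylglycerol lipase, at 300.3 ± 33.8 CPM after 1 week and 199.9 ± 50.1 CPM on normal diet. That call was lost in 11 of 20 alternatives, including without normal-diet library 2, 4 or 5 or week 1 library 1, 2 or 4. Plin2, the main coat protein of hepatocyte lipid droplets, had 563, 483, 491 and 465 CPM after 1 week, against 588, 351, 463, 574 and 296 CPM on normal diet, with wide overlap. The median of the droplet list was -0.03, or 0.09 with library size alone.

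Of 13 genes of lipid uptake and binding, 2 were called higher, against 0.219% of all genes tested. Fabp2, a fatty acid binding protein known best from the intestine, had 107, 136, 142 and 155 CPM after 1 week, against 75.1, 56.1, 73.9, 48.4 and 39.5 CPM on normal diet. Lpl, lipoprotein lipase, had 118, 84.5, 141 and 63.8 CPM after 1 week, against 53, 46.3, 30.7, 49.9 and 25.2 CPM on normal diet. Neither group pair overlapped, but the Lpl call was lost in 8 of 20 alternatives, including without normal-diet library 5 or week 1 library 1 or 3. Lpl is also expressed by macrophages, whose Kupffer marker sums are given above. With a score of non-parenchymal markers in the model its log2 fold change was 0.88, against 1.31 without it, and the call was lost. Cd36, the fatty acid translocase, was at 15.4 ± 2.68 CPM after 1 week and 12.8 ± 3.23 CPM on normal diet (adjusted p = 0.738). Pparg, the receptor that drives fat storage, was at 5.25 ± 4.2 CPM after 1 week and 3.22 ± 0.57 CPM on normal diet, and Cidec, which fuses droplets, was below 1 CPM in both group means.

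Among 14 apolipoprotein and assembly genes edgeR and voom called 0 and DESeq2 1, with an unadjusted p under 0.05 for 5, and the median was -0.07, or 0.05 with library size alone. Apom, carrier of sphingosine phosphate in HDL, came closest with a log2 fold change of -0.40 ± 0.11 (adjusted p = 0.0634). Of 24 genes of fatty acid oxidation and ketogenesis 1 was called, Vnn1, a pantetheinase and PPAR alpha target, at 15.7 ± 3.58 CPM after 1 week (SD, n = 4) and 7.25 ± 3.37 CPM on normal diet (SD, n = 5). The Vnn1 call was lost in 5 of 20 alternatives, including without normal-diet library 5 or week 1 library 1 or 4. Cpt1a, the gate of mitochondrial import, had a log2 fold change of 0.40 ± 0.16 and was not called. Cyp4a14 and Fgf21, targets of PPAR alpha, had log2 fold changes of -0.15 ± 0.72 and -0.07 ± 0.72.

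Bile acid synthesis is the route by which the liver removes cholesterol as acids. Of 20 tested genes of bile acid synthesis and transport, 1 was called lower, against 0.977% of all genes tested. An unadjusted p under 0.05 (edgeR) was seen for 9, against 10.4% of all genes. Log2 fold changes were negative for 11 and positive for 9, with a median of -0.02. The groups did not overlap for 4, against 4.42% of all genes. The call was that of Abcc3, a basolateral exporter of conjugates, at 19.7 ± 4.00 CPM after 1 week (SD, n = 4) and 34.2 ± 5.03 CPM on normal diet (SD, n = 5). It was lost without week 1 library 1 and without normal-diet libraries 1 and 5. Cyp7a1, the rate-limiting hydroxylase, had 59.3, 68.9, 39.3 and 51.5 CPM after 1 week, against 68.4, 69.7, 34.8, 33.4 and 29.6 CPM on normal diet. Its groups overlapped throughout (log2 fold change 0.21 ± 0.42), as did those of Nr0b2, the repressor SHP. Cyp8b1, which sets the ratio of cholic to other bile acids, had 383, 352, 347 and 381 CPM after 1 week, against 624, 636, 683, 532 and 417 CPM on normal diet, apart but not called (adjusted p = 0.124). Outside the list, Cyp39a1, an oxysterol hydroxylase, was 2.65-fold lower and Slco1a4, an organic anion uptake carrier, 3.15-fold lower (both chosen after their values were seen). The Cyp39a1 call was lost in 5 of 20 alternatives, including without week 1 library 3, and the Slco1a4 call in 3, with the replicate number as a block and in both removals of 2 libraries.

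Several families of detoxification enzymes held genes that fell. Of 17 tested glutathione S-transferases, which join glutathione to electrophiles, 5 were called lower, against 0.977% of all genes tested, 16 had negative log2 fold changes and the median was -0.57. Gsta2 had 8.16, 9.84, 8.93 and 7.80 CPM after 1 week, against 34.3, 42.5, 29.6, 45.8 and 89.5 CPM on normal diet. Gstt3 had 19.8, 28.5, 22.1 and 28.3 CPM after 1 week, against 66.1, 81.8, 54.1, 68.1 and 163 CPM on normal diet. In both, normal-diet library 5 was well above the other 4, and the week 1 group was below all 5. Gsta4, which acts on lipid peroxidation products, was 2.47-fold lower and Gstt2 3.19-fold. Gstt1 was 1.53-fold lower, with a call lost in 10 of 20 alternatives, including without normal-diet library 1, 2 or 5 or week 1 library 1, 2 or 3. Gstm1, the most abundant of those named, was at 754 ± 184 CPM after 1 week (SD, n = 4) and 1336 ± 302 CPM on normal diet (SD, n = 5), apart but not called (adjusted p = 0.0651). Without normal-diet library 3, 8 members were called. Paralogs of this family are alike in sequence, and how the authors assigned shared reads is not stated, so the division between members is uncertain.

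Among other antioxidant targets of the factor NRF2, of 15 tested, edgeR, DESeq2 and voom called 0, and 3 had an unadjusted p under 0.05. Nqo1, a quinone reductase, was at 1.29 ± 0.73 CPM after 1 week (SD, n = 4) and 2.91 ± 0.51 CPM on normal diet (SD, n = 5). Of 23 cytochrome P450 genes of drug metabolism 2 were called lower, against 0.977% of all genes tested. Cyp3a11, a broad-range drug oxidase, had 466, 562, 1025 and 611 CPM after 1 week, against 2222, 3163, 1421, 2698 and 2214 CPM on normal diet. Cyp3a25 was 1.77-fold lower, and Cyp3a59, outside the list and chosen after its values were seen, 3.97-fold lower. The Cyp3a11 call was lost in 5 of 20 alternatives, including without week 1 library 1, 2 or 4. That of Cyp3a25 was also lost in 5, including without week 1 library 1 or 3. Reads of these paralogs may also be shared. The list as a whole had a median of -0.05, or 0.07 with library size alone.

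Among conjugation and ester hydrolysis genes 2 of 20 were called lower, against 0.977% of all genes tested. Ces2a, a carboxylesterase, had 128, 136, 156 and 139 CPM after 1 week, against 298, 352, 225, 304 and 221 CPM on normal diet. Sult1a1, a phenol sulfotransferase, had 29.1, 37.0, 39.9 and 42.4 CPM after 1 week, against 81.1, 87.5, 40.9, 96.1 and 133 CPM on normal diet, and overlapped only through normal-diet library 3. Of 9 steroid hydroxylases and dehydrogenases, 1 was called: Cyp17a1, which makes androgen precursors, had 3.20, 1.16, 1.24 and 3.36 CPM after 1 week, against 18.7, 13.8, 12.3, 12.4 and 78.3 CPM on normal diet. The normal-diet mean rests largely on library 5, while every week 1 library was below every normal-diet one.

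Genes of the lobule's zones had medians of opposite sign. Of 21 tested pericentral genes, normally highest around the central vein, 2 were called higher, against 0.219% of all genes tested, 18 had positive log2 fold changes and the median was 0.84. Of 18 periportal genes, highest where blood enters, 8 were called lower, against 0.977% of all genes tested, all 18 had negative log2 fold changes and the median was -0.61. The medians kept their sign with library size alone, at 0.96 and -0.49. The pericentral median was 0.60 without normal-diet library 3, the only normal-diet library in which the pericentral genes Cyp2e1, Slc1a2, Gulo and Glul were all the lowest of the group.

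Glul, glutamine synthetase of the innermost pericentral cells, had 1049, 809, 1294 and 1042 CPM after 1 week, against 582, 708, 301, 395 and 399 CPM on normal diet. Lect2, a secreted target of Wnt signals, had 83.3, 99.1, 105 and 122 CPM after 1 week, against 62.4, 60.3, 25.4, 31.1 and 48.9 CPM on normal diet. Their groups were apart, but neither call was held firmly: Glul lost it in 11 and Lect2 in 12 of 20 alternatives. Without normal-diet library 3, 4 or 5, or week 1 library 1, 3 or 4, 0 pericentral genes were called, and 1 without week 1 library 2. Cyp2e1, the ethanol-oxidising P450, had 1511, 2145, 1965 and 2567 CPM after 1 week, against 1679, 1502, 474, 821 and 1120 CPM on normal diet (adjusted p = 0.351).

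Among periportal genes, Etnppl, which breaks down phosphoethanolamine, had 74.2, 83.2, 103 and 95.6 CPM after 1 week, against 176, 203, 244, 196 and 294 CPM on normal diet. It was 2.50-fold lower and the only periportal call held in all 20 alternatives. Aldh1b1, a mitochondrial aldehyde dehydrogenase, was 2.40-fold lower, Gls2, liver glutaminase, 2.00-fold, Hal, which opens histidine breakdown, 1.68-fold, and Uroc1, the next step, 1.43-fold. Their calls were lost in 2, 10, 13 and 11 of 20 alternatives, for Aldh1b1 without week 1 library 2 or 4. The count of 8 became 3 without normal-diet library 5, 5 without normal-diet library 3, and 3, 2, 4 and 3 without week 1 libraries 1, 2, 3 and 4.

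Nitrogen disposal overlapped with this zone. Of the 783 genes in function lists 36 stand in more than 1 list, so the counts of related lists are not independent. All 8 urea cycle genes had negative log2 fold changes (median -0.33) and 3 were called lower, against 0.977% of all genes tested. Ass1, argininosuccinate synthase, had 323, 341, 339 and 439 CPM after 1 week, against 659, 639, 798, 706 and 1296 CPM on normal diet. Asl, the lyase after it, had 163, 167, 134 and 161 CPM after 1 week, against 242, 272, 435, 220 and 352 CPM on normal diet. Arg1, arginase, was 1.64-fold lower, and Cps1, the entry enzyme, had a log2 fold change of -0.36 ± 0.14 without passing. The Asl call was lost only without week 1 libraries 3 and 4 together, that of Ass1 in 8 and that of Arg1 in 14 of 20 alternatives. The count of 3 was 1 without normal-diet library 5 or week 1 library 1, 2 or 3.

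Of 29 amino acid catabolism genes 4 were called lower, against 0.977% of all genes tested, and 28 had negative log2 fold changes (median -0.31). Got1, the cytosolic aspartate aminotransferase, had 111, 98.7, 115 and 130 CPM after 1 week, against 228, 223, 372, 243 and 404 CPM on normal diet. Acmsd, which steers tryptophan breakdown away from NAD synthesis, was 2.24-fold lower, and Hal and Uroc1 complete the 4. The count was 2 without normal-diet library 5 or any 1 week 1 library. Gpt, alanine aminotransferase, was apart between the groups without passing (log2 fold change -0.51 ± 0.14, adjusted p = 0.0735).

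The methionine cycle was lower at its start. Of 22 genes of methionine, choline and one-carbon metabolism, 4 were called lower, against 0.977% of all genes tested (median -0.36). Mat1a, which makes S-adenosylmethionine, had 1269, 1526, 1302 and 1614 CPM after 1 week, against 1923, 2848, 2838, 2408 and 3747 CPM on normal diet. Gnmt, which uses it to methylate glycine, had 1445, 1642, 2449 and 2092 CPM after 1 week, against 2809, 4375, 4885, 3485 and 4345 CPM on normal diet. Every week 1 library was below every normal-diet library for both genes. Aldh1l1, which oxidises formyl-tetrahydrofolate, was 1.86-fold lower and Cth, the last step to cysteine, 2.26-fold. The Gnmt call was lost without week 1 library 1 or 2. That of Cth was lost in 7 of 20 alternatives, including without normal-diet library 2 or 5 or week 1 library 1 or 2. The list count was 2 without either of these week 1 libraries. Cbs, which joins homocysteine to serine, had a log2 fold change of -0.38 ± 0.12 and was not called.

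**Figure D4:**
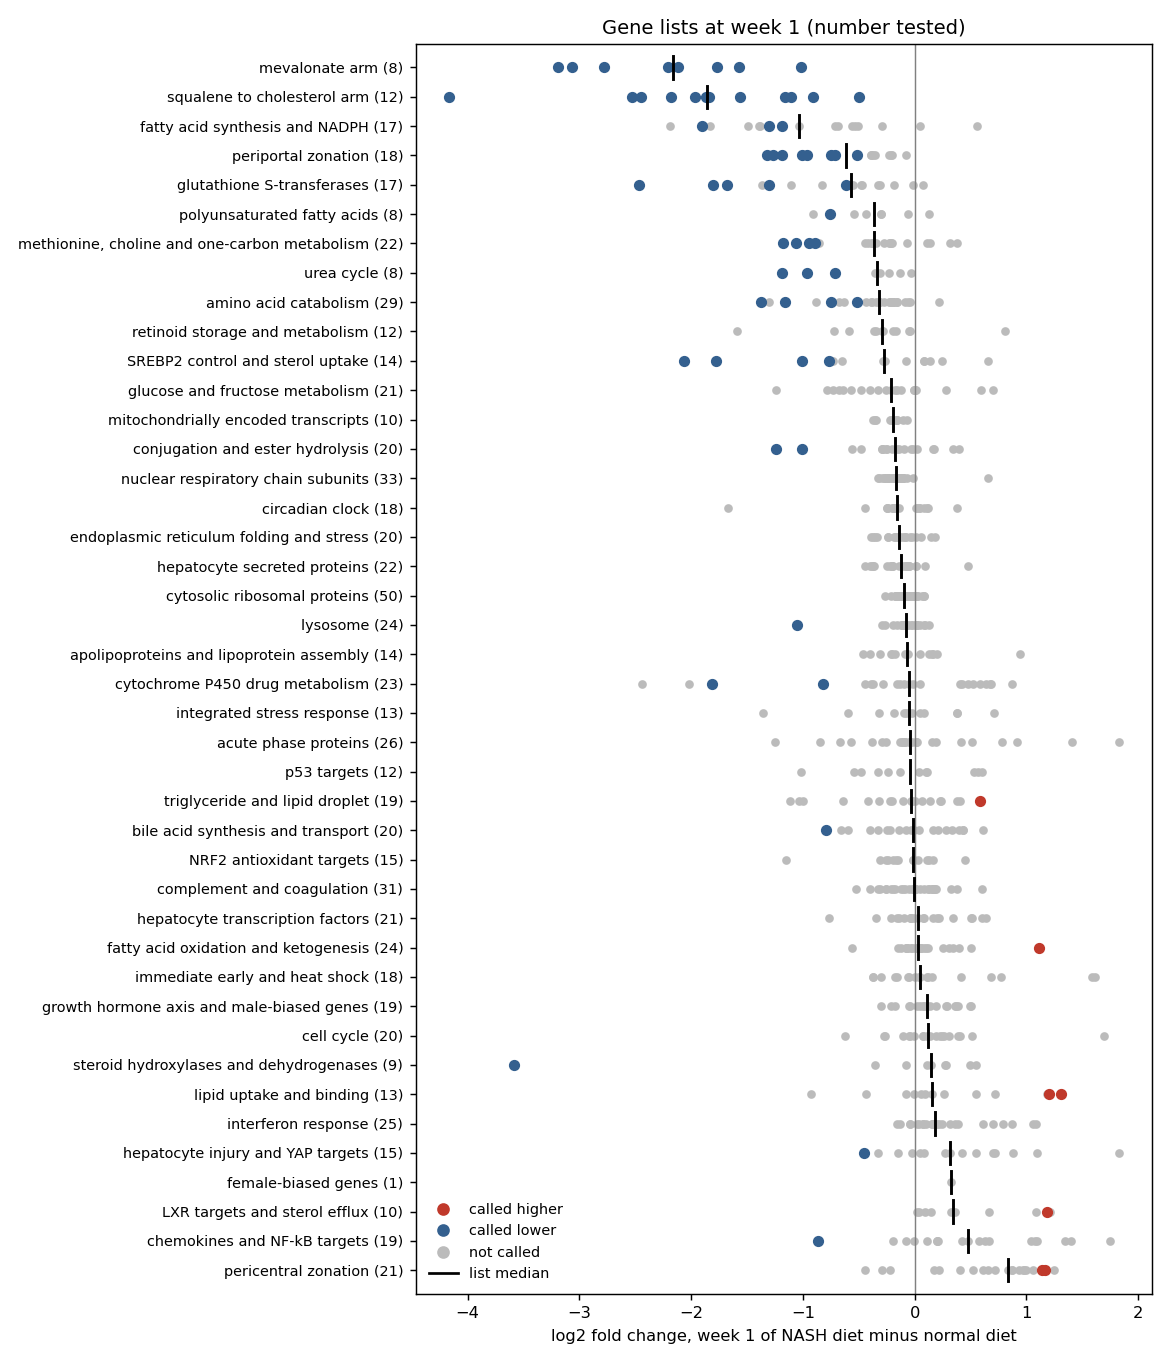
Log2 fold change (1 week minus normal diet, x axis) of every tested member of the 42 function lists, 1 row per list and 1 point per gene, with list medians as bars; blue and red points were called lower and higher. Both sterol arms and the 18 periportal genes lie below 0, and 18 of 21 pericentral genes above it.

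In 20 of the 42 function lists edgeR called 0 members. They held 401 members tested, counted once per list, of which 64 (16%) had an unadjusted p under 0.05, against 10.4% of all genes; DESeq2 called 13 of them and voom 0. They comprise glucose and fructose metabolism, acute phase proteins, complement and coagulation, interferon response, endoplasmic reticulum stress, the integrated stress response, the cell cycle, p53 targets, the clock, hepatocyte transcription factors, secreted proteins, respiratory chain subunits and ribosomal proteins, among others. Saa1, an acute phase reactant, had 498, 203, 321 and 252 CPM after 1 week, against 108, 399, 173, 123 and 38.4 CPM on normal diet, with overlap. Lcn2, an iron-scavenger secreted in injury, had 13.3, 6.95, 13.2 and 11.01 CPM after 1 week, against 2.18, 4.83, 3.59, 2.16 and 2.85 CPM on normal diet, apart but not called (adjusted p = 0.34). Preset genes known from scarring and from lipid-associated macrophages had low levels. Col1a1 averaged 2.12 CPM after 1 week and 0.96 CPM on normal diet, Gpnmb 0.362 CPM after 1 week and 0.179 CPM on normal diet, and Trem2 0.324 CPM after 1 week and 0.369 CPM on normal diet. Hnf4a, the master regulator of hepatocyte identity, had a log2 fold change of 0.20 ± 0.13, and Alb -0.40 ± 0.12 (adjusted p = 0.098).

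Single calls fell in 3 further lists. Ccl9, a chemokine, had 37.1, 33.6, 43.0 and 34.6 CPM after 1 week, against 77.7, 63.2, 45.8, 74.8 and 76.1 CPM on normal diet, while 15 of the 19 chemokine and NF-kB genes had positive log2 fold changes. Krt18, a keratin of hepatocytes, was 1.37-fold lower and Gla, a lysosomal galactosidase at 2.80 ± 0.62 CPM after 1 week (SD, n = 4) and 5.83 ± 0.77 CPM on normal diet (SD, n = 5), 2.07-fold lower. Both of these calls were lost in 10 of 20 alternatives, that of Krt18 without normal-diet library 2, 3, 4 or 5 or week 1 library 1, 2 or 4, and that of Gla without normal-diet library 1 or week 1 library 1, 2 or 4. Csf3r, a neutrophil marker, was called higher at 1.41 ± 0.25 CPM after 1 week and 0.245 ± 0.19 CPM on normal diet, a few counts per library. That call was lost in 7 of 18 alternatives, including with the marker score in the model and without normal-diet library 2 or week 1 library 1 or 2. Summed neutrophil markers spanned 2.31 to 4.28 CPM at 1 week and 0.726 to 3.10 CPM on normal diet.

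Outside the lists, the largest fall was that of Chrna4, a subunit of the nicotinic acetylcholine receptor, with 2, 0, 6 and 3 counts after 1 week, against 55, 19, 90, 69 and 69 counts on normal diet. Slc13a2, a carrier of citrate and other dicarboxylates, had 2.08, 2.32, 2.20 and 3.06 CPM after 1 week, against 9.26, 15.9, 11.5, 13.6 and 14.3 CPM on normal diet. Among genes chosen after their values were seen, Usf1, a transcription factor that binds E-box sequences, had 21.8, 20.6, 16.2 and 14.4 CPM after 1 week, against 56.3, 47.7, 39.0, 47.7 and 46.5 CPM on normal diet. These falls were seen in every week 1 library, and those of Slc13a2 and Usf1 held in all 20 alternatives. A further 4 genes were also chosen after their values were seen. Rdh11, a retinol dehydrogenase, was 4.16-fold lower, Aldoc, an aldolase, 3.60-fold, and Akr1c19, an aldo-keto reductase, 3.00-fold. Mmab, the cobalamin enzyme whose start faces that of Mvk in the stretch shown above, was 1.86-fold lower. The Mmab call was lost in 14 of 20 alternatives, including each removal of 1 library other than normal-diet libraries 1 and 3.

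Outside the lists, the largest rises among called genes with at least 10 CPM in either group and no overlap were those of Adam11, Tsc22d1 and Tmem86a. Adam11, a catalytically inactive member of a protease family, had 10.2, 11.6, 9.89 and 12.7 CPM after 1 week, against 2.00, 1.21, 4.21, 2.29 and 4.61 CPM on normal diet. Tsc22d1, a leucine zipper transcriptional regulator, had 103, 127, 153 and 236 CPM after 1 week, against 56.8, 69.2, 43.8, 39.1 and 44.1 CPM on normal diet. Tmem86a, a lysoplasmalogenase, had 14.9, 11.3, 33.5 and 28.0 CPM after 1 week, against 4.72, 9.32, 10.8, 9.70 and 3.51 CPM on normal diet. The groups of all 3 were apart. For Tmem86a the gap was narrow in week 1 libraries 1 and 2. Its call was lost in 4 of 20 alternatives: without week 1 library 3, with the compared groups alone and in both removals of 2 libraries. The Tsc22d1 call was lost in both removals of 2 libraries (adjusted p up to 0.143, edgeR). Abcg2, an exporter of drugs and urate, was at 133 ± 12.3 CPM after 1 week (SD, n = 4) and 85.3 ± 10.53 CPM on normal diet (SD, n = 5). Slc17a8, a vesicular glutamate transporter, had 6.56, 13.3, 12.1 and 17.1 CPM after 1 week, against 6.53, 5.01, 6.55, 6.07 and 5.70 CPM on normal diet, with week 1 library 1 barely above normal-diet libraries 1 and 3. Its call was lost in 7 of 20 alternatives, including without week 1 library 2 or 4, with adjusted p up to 0.278 over the alternatives. Larger fold changes were those of genes of a few counts, chosen here after their values were seen. Pde5a, a phosphodiesterase of cyclic GMP, had 23, 15, 17 and 15 counts after 1 week, against 5, 4, 1, 4 and 1 counts on normal diet. H2-Q2, an MHC class I gene with close paralogs, had 9, 7, 17 and 12 counts after 1 week, against 0, 3, 0, 1 and 0 counts on normal diet. Plagl1, a zinc finger factor, had 4, 4, 5 and 7 counts after 1 week, against 0, 0, 1, 2 and 0 counts on normal diet. The Pde5a call held in all 19 alternatives in which it was tested, that of H2-Q2 in 9 of 10 and that of Plagl1 in 3 of 18. Hsd17b11, a dehydrogenase of lipid droplets chosen after its values were seen, was 1.46-fold higher and held in all 20 alternatives.

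To see whether the 1-week state stood apart from the following weeks, weeks 2 and 3 (3 and 4 libraries) were each set against week 1; these comparisons share the week 1 libraries with the one above. The edgeR test called 0 of 11869 genes at either time. At an unadjusted p under 0.05 (edgeR) there were 575 genes (4.84%) at week 2 and 740 (6.23%) at week 3. Among the 142 genes called at week 1 these counts were 30 (21.1%) and 44 (31%). Those genes were selected with the same week 1 libraries, so their shares cannot be set against the shares of all genes. The voom test called 0 genes and DESeq2 1 at each time, Dusp8 at week 2 and Cfd at week 3, both higher than at week 1. Sqle averaged 3.51 ± 0.93 CPM at week 1 (SD, n = 4), 5.46 ± 1.55 CPM at week 2 (SD, n = 3) and 5.55 ± 2.25 CPM at week 3 (SD, n = 4). Hmgcs1 averaged 110.5 ± 18.6 CPM at week 1, 112 ± 17.0 CPM at week 2 and 119 ± 42.5 CPM at week 3. The means of both genes lay below every normal-diet library at all 3 times. The lowest normal-diet library, library 3 in both cases, had 54.9 CPM for Sqle and 197 CPM for Hmgcs1.

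Some genes lay well away from their week 1 level without passing. Tsc22d1 averaged 155 ± 57.9 CPM at week 1, 57.4 ± 28.4 CPM at week 2 and 78.5 ± 9.81 CPM at week 3 (log2 fold change -1.43 ± 0.35 at week 2, adjusted p = 0.52). Glul averaged 1049 ± 198 CPM at week 1, 656 ± 93.6 CPM at week 2 and 607 ± 156 CPM at week 3. The median log2 fold change of the 21 pericentral genes against week 1 was -0.68 at week 2 and -0.67 at week 3. Cfd, complement factor D, a protease best known from fat cells, averaged 3.62 ± 0.70 CPM at week 1, 18.8 ± 13.7 CPM at week 2 and 29.8 ± 18.9 CPM at week 3 (log2 fold change 3.03 ± 0.67 at week 3, adjusted p = 0.686).

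**Figure D5:**
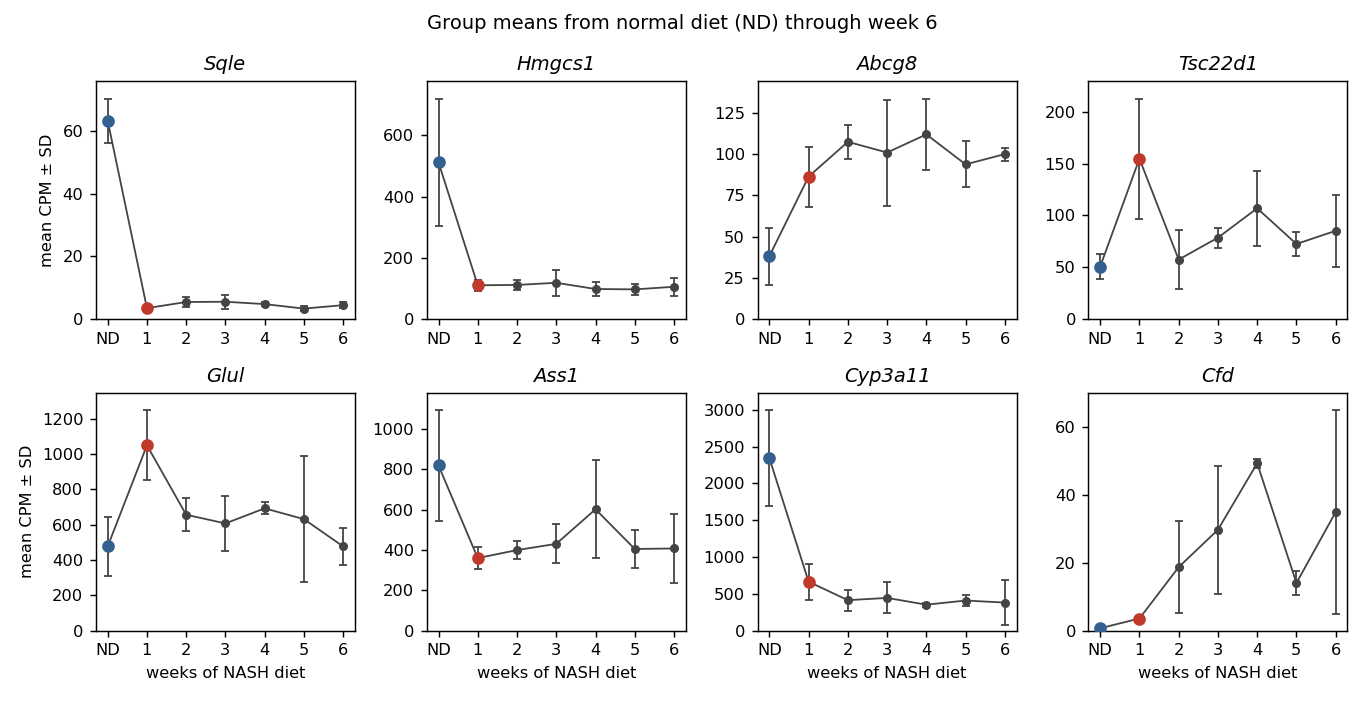
Group means with SD as error bars (CPM, y axis) of 8 genes on normal diet (ND, blue, 5 libraries), at week 1 (red, 4 libraries) and at weeks 2 to 6 (grey, 3 or 4 libraries each). Sqle and Hmgcs1 are low at every week on the diet, and Tsc22d1 and Glul have their highest mean at week 1.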

How the data were processed

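Sorted hepatocytes were profiled with the QuantSeq FWD kit, which reads the 3' ends of polyadenylated RNA, per the labels' protocols. Per the submitters' processing notes, the tools were cutadapt, FastQC and STAR 2.7.1a and the build was GRCm39; not given in the sources used here are the counting tool, its strand setting and the annotation. The authors deposited raw counts, a row per gene symbol and a column per library, of which 0 columns were left unused. From it, edgeR 4.0.16 in R 4.3.3 gave CPM with TMM composition factors. All 25 libraries entered 1 model of 7 groups, without covariates (robust quasi-likelihood F-tests, 18 residual degrees of freedom, genes kept by filterByExpr), and contrasts gave the comparisons. The threshold for a call was an adjusted p of 0.05 (Benjamini-Hochberg), and SE is the log2 fold change over the square root of F. No 2 libraries of a group were copies: the disagreement of pairs, chi-squared over degrees of freedom, was 7.3 or more. The procedure was tested on simulated data.

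The text names the 12 largest rises and falls among called genes with at least 10 CPM in either group and no overlap, every called list member, up to 2 further members per list by p, and 47 preset genes; others are marked, and a few genes are not reported here. Members, lists and this rule were chosen with earlier results of these data known. Promoter windows were matched by symbol to a RefSeq table. Alternatives were other scalings and filters, DESeq2 1.42.0, limma 3.58.1 (voom), the compared groups alone, a score of non-parenchymal markers or the replicate number as a term, and left-out libraries.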

Additional observations from a re-analysis of the deposited data

Results flagged for a closer look

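A library stood far from the others of its group in 26 of 270 sets of values checked (genes named above and marker sums, in each group). The cutoffs flag about 1 in 20 sets of normally distributed values. These sets are CPM that were not log-transformed, many of genes chosen by their results and varying together. The count therefore cannot be set against chance. In 11 of the 26 it was normal-diet library 3. It was high among normal-diet libraries for Fasn (1334 CPM), Thrsp (2056 CPM), Elovl6 (564 CPM), Acly (836 CPM), Scd1 (13270 CPM), Srebf1 (267 CPM), Acacb (80.9 CPM), Me1 (252 CPM) and Abcg5 (86.4 CPM), and low for Msmo1 (73.0 CPM) and Fdft1 (16.8 CPM). In 6 it was normal-diet library 5, which was high for Cyp17a1 (78.3 CPM), Cyp39a1 (21.5 CPM), Gsta2 (89.5 CPM), Gstt3 (163 CPM), Ass1 (1296 CPM) and Hal (853 CPM). Normal-diet library 1 was low for Gls2 (129 CPM), and library 2 of that group high for H2-Q2 (0.5179 CPM). Among week 1 libraries, library 1 was high for Cidec (1.12 CPM) and Pde5a (3.678 CPM), library 2 low for Acacb (12.7 CPM), and library 4 high for Ass1 (439 CPM). Week 1 library 3 was high for Pmvk (14.6 CPM) and Pparg (11.5 CPM) and low for Srebf2 (6.60 CPM).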

How the results depend on the processing

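With DESeq2 in place of edgeR, 265 genes were called at 1 week, 140 of them shared with the 142. Removing 1 library at a time gave between 93 calls (without week 1 library 2) and 157 (without normal-diet library 3), with 94 without normal-diet library 5. Without normal-diet libraries 1 and 5 there were 84 calls, and without week 1 libraries 3 and 4, a choice made after seeing the data, 67. Both removals leave fewer samples, and the cause of the lower counts was not tested. The counts with other size factors, other filters, voom, the compared groups alone and the marker score lay between 111 and 142, and with library size alone there were 151, of which 108 were shared. At weeks 2 and 3 against week 1, DESeq2 called 1 gene each. Of the called genes named above, 12 kept their call in each removal of 1 library in which they were tested but lost it elsewhere. H2-Q2 among them was tested in only 10 of the alternatives. Gsta2, Got1, Asl, Cyp17a1, Chrna4, Idi1, Tsc22d1 and Slco1a4 lost it without week 1 libraries 3 and 4, and Mvk, Erg28, H2-Q2, Tsc22d1 and Slco1a4 without normal-diet libraries 1 and 5. With the compared groups alone Sult1a1, Mvk, Cyp17a1, Idi1 and Erg28 lost it, with voom Chrna4 and Idi1, and with the replicate block Slco1a4. With the replicate number as a block 104 genes were called (12 higher, 92 lower), 100 of them shared. The groups share only a number: deviations of same-numbered libraries correlated between -0.244 and 0.164 over 4 pairs, 1 of them over 0.1, and 0 of 4 week 1 libraries correlated best with its own number. Depth limits genes of a few counts per library, and 20 called genes averaged below 10 CPM in both groups.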
